A study of Mus musculus with 12 samples.

Results

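Mcam, Alcam, Cadm1 and Cdh2 encode cell surface adhesion proteins, and their levels were compared in primary bone marrow stroma from wild-type, Crebbp+/- and Ep300+/- mice. The 4 genes were chosen by their measured levels on these same arrays, so their levels and differences stand as a description. Every probe set of the deposited table whose platform annotation gave exactly 1 of these symbols was taken. That gave 8 probe sets of 3109, 1 each for Mcam, Cadm1 and Cdh2 and 5 for Alcam, among 1974 genes with a single symbol. All 8 remained when probe sets with a mean under the log2 of 100 were left out, and other probe sets of these genes are not analysed here.

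Per the labels all mice were C57BL/6 and 3 to 4 months old. Marrow was kept in M5300 medium for 2 weeks until a stroma layer had formed, then received 1500 cGy and fresh medium, in the wild-type cultures as in both heterozygotes. Crebbp+/- and Ep300+/- mice carry 1 inactive copy of the named coactivator gene in every cell, and how the alleles were made is not given in the sources used here. There were 4 arrays per genotype, described as biological replicates, 12 in all. Whether each came from 1 mouse or from a pool is not stated, and p-values set a difference of means against the spread between these arrays.

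Mcam (CD146), Alcam (CD166) and Cadm1 belong to the immunoglobulin superfamily, whose extracellular domains bind the same or another adhesion protein on a neighbouring cell. Cdh2, or N-cadherin, is a classical cadherin that binds itself in the presence of calcium and is anchored to actin through catenins. In bone marrow, Mcam marks endothelial cells, pericytes and stromal progenitors, Alcam is found on osteoblasts and stromal cells, and Cdh2 on osteoblast-lineage cells. CREBBP and EP300 are related acetyltransferases recruited by many transcription factors, among them CREB.

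The median log2 level per array ranged from 7.98 to 8.43. Crebbp itself had a log2 level of 8.52 ± 0.058 in wild type (SD, n = 4), 7.74 ± 0.091 in Crebbp+/- and 8.65 ± 0.12 in Ep300+/-. Where its probe set lies relative to the targeted part is not known here, and no probe set of Ep300 was analysed. Of 10 reticular stroma markers, 8 were in the table, among them Cxcl12, Lepr and Kitl, as were 13 of 16 endothelial, 5 of 14 pericyte and mural and 4 of 14 macrophage markers. No probe set in the table had an interquartile range under 0.5001. Being in the table or not therefore does not show whether a cell type was present, and counts of measured markers cover only those that varied. Crebbp+/- 1 and 3 had low readings (2.73 and 2.69) of Eif2s3y, a Y-linked transcript, which was at 8.41 or above on the rest. The median of all log2 differences between Crebbp+/- and wild type was 0.243, so a gene at 0 in that comparison lay below the typical probe set. The extracts are of whole cultures, in which fewer cells of a type and less RNA per cell cannot be told apart.

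The 250 bases before the start of Mcam and of Alcam are shown because these genes differed in opposite directions and CREBBP is known as a partner of CREB, which binds the cAMP response element TGACGTCA. Both come from RefSeq on build GRCm38.p6, where 2 of the 4 genes had an entry. They are printed 5′ to 3′ on the strand of the gene, Mcam at chr9:44134408-44134657 (plus strand) and Alcam at chr16:52453082-52453331 (minus strand). Capitals mark the element TGACGTCA in the first and its half-site TGACG, read on the opposite strand as CGTCA, in the second.
Mcam: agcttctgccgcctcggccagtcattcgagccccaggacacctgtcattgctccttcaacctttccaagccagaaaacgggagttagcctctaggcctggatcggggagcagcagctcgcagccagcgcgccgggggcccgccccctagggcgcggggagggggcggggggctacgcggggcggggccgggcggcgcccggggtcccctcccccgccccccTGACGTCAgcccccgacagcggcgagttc
Alcam: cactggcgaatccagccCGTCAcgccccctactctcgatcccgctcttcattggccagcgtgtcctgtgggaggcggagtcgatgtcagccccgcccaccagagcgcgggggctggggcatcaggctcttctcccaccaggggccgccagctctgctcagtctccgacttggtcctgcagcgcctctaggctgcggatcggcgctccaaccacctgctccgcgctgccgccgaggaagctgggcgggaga
Mcam held 1 full element, beginning 29 bases before the start, and both of its half-site matches lie within it. Alcam held 0 full elements and 1 half-site, 233 bases before the start. Searched on both strands, the full element was in 1.55% of 32851 promoter windows of this length and in 2.22% of the 2071 windows of genes with a probe set here. The half-site was in 17.8% and 25%. The GC box GGGCGG matched 5 times in Mcam and 2 times in Alcam (32.7% of all windows and 54.1% of those of measured genes hold one), the E-box CACCTG 1 time in each (17.2%), and the CCAAT box 1 time in Alcam and 0 times in Mcam (33.8%). The letters TATAAA were in neither (12.4%). GC content was 73.6% for Mcam and 69.2% for Alcam. These matches describe letters in a window and no binding was measured.

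Mcam was higher in Crebbp+/- stroma. Its log2 level was 8.40, 7.20, 7.20 and 7.63 on wild-type arrays 1 to 4. The Crebbp+/- arrays read 9.83, 9.55, 9.34 and 8.26, and the Ep300+/- arrays 7.84, 8.01, 7.53 and 7.38. Crebbp+/- 1, 2 and 3 thus lay above all 8 other arrays, whereas Crebbp+/- 4 fell 0.14 below wild-type 1, the highest wild-type array. The group means were 7.61 ± 0.565 in wild type, 9.25 ± 0.686 in Crebbp+/- and 7.69 ± 0.288 in Ep300+/- (SD, n = 4 each). Crebbp+/- stroma held 3.11 times the wild-type Mcam level (log2 fold change 1.64, SE 0.37, from limma's fit over all probe sets). That log2 fold change was 1.44 after median centring of the arrays and 1.42 after quantile normalization. Between arrays of the same replicate number the difference was 1.43, 2.35, 2.14 and 0.64, positive in each of the 4. Against Ep300+/- stroma the log2 fold change was 1.56 (SE 0.37), and all 4 Crebbp+/- arrays lay above all 4 Ep300+/- arrays, by a gap of 0.25.

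**Figure D1:**
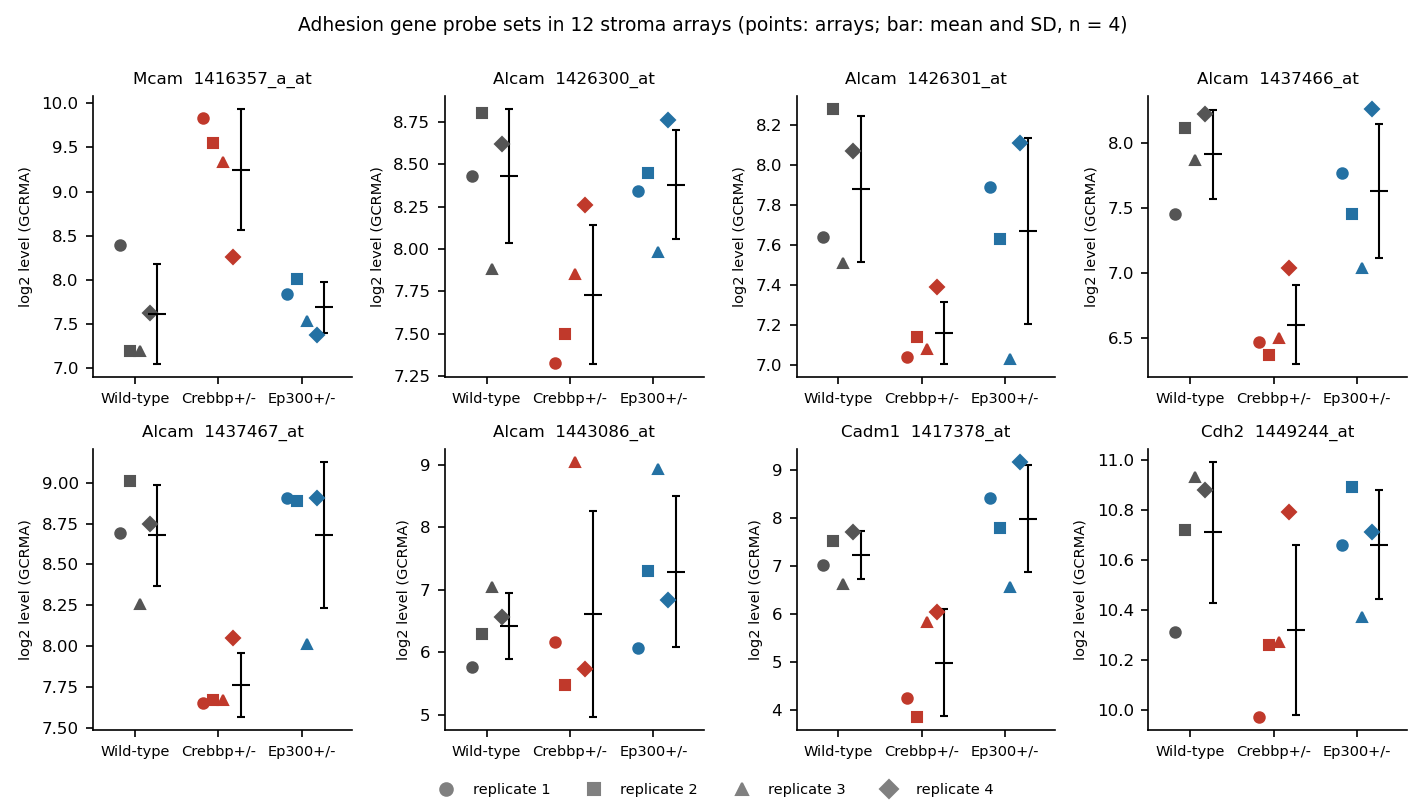
Log2 expression level (GCRMA) of the 8 probe sets, with 1 panel per probe set and its own vertical scale. Points are arrays, their shape gives the replicate number, and the bars give mean and SD of 4 arrays per genotype. Mcam averaged 9.25 in Crebbp+/- against 7.61 and 7.69 in the other genotypes, while Cadm1 averaged 4.99 against 7.23 and 7.99.

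Cadm1, also called Necl2 or SynCAM1, was the one of the 4 genes that lay farthest below wild type in Crebbp+/- stroma. Wild-type arrays 1 to 4 read 7.03, 7.53, 6.62 and 7.72 on the log2 scale. The Crebbp+/- arrays read 4.25, 3.85, 5.83 and 6.04, and the Ep300+/- arrays 8.42, 7.79, 6.56 and 9.17. No Crebbp+/- array reached the lowest array of either other genotype, with gaps of 0.58 to wild type and 0.51 to Ep300+/-. The means were 7.23 ± 0.495, 4.99 ± 1.11 and 7.99 ± 1.11 in wild type, Crebbp+/- and Ep300+/- (SD, n = 4 each). The Crebbp+/- level was 21.3% of the wild-type level (log2 fold change -2.23, SE 0.60) and 12.6% of the Ep300+/- level (log2 fold change -2.99, SE 0.60). Same-numbered arrays of Crebbp+/- and wild type differed by -2.78, -3.69, -0.80 and -1.67, so the difference was smallest between arrays 3 and largest between arrays 2. The readings of 4.25 and 3.85 are low on the scale of a table whose lowest value was 1.65. Whether they are above background is not known here, and the size of the Cadm1 difference is uncertain for that reason.

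Alcam was measured by 5 probe sets, of which 4 were lower in Crebbp+/- stroma and 1 was not. Alcam lies on chromosome 16, as does the targeted gene Crebbp, and whether that bears on its level was not tested. Probe set 1437466_at, the one with the widest gap, read 7.45, 8.11, 7.87 and 8.22 on wild-type arrays 1 to 4. The Crebbp+/- arrays read 6.47, 6.37, 6.50 and 7.04, and the Ep300+/- arrays 7.77, 7.45, 7.04 and 8.26. All Crebbp+/- arrays lay below all wild-type arrays by a gap of 0.41, whereas Crebbp+/- 4 and Ep300+/- 3 were level at 7.04. Means were 7.91 ± 0.342, 6.60 ± 0.303 and 7.63 ± 0.514 in wild type, Crebbp+/- and Ep300+/- (SD, n = 4 each). The Crebbp+/- level was 40.2% of wild type (log2 fold change -1.32, SE 0.30).

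Probe set 1437467_at, the Alcam probe set of highest mean, read 8.69, 9.01, 8.26 and 8.75 in wild type. In Crebbp+/- it read 7.65, 7.67, 7.67 and 8.05, and in Ep300+/- 8.91, 8.89, 8.01 and 8.91. Crebbp+/- again did not overlap wild type, by 0.21, and the log2 fold change was -0.92 (SE 0.28), with Ep300+/- at the wild-type mean of 8.68. The differences of the other 2 were smaller. Probe set 1426301_at fell between 7.04 and 7.39 in Crebbp+/- and between 7.51 and 8.28 in wild type, a gap of 0.12 (log2 fold change -0.71, SE 0.28). Probe set 1426300_at overlapped, at 7.33 to 8.26 in Crebbp+/- against 7.88 to 8.80 in wild type (log2 fold change -0.70, SE 0.29). For all 4 of these probe sets the 4 differences between same-numbered arrays were negative, from -1.74 to -0.03.

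The fifth Alcam probe set, 1443086_at followed another pattern. It read 5.76, 6.30, 7.04 and 6.57 in wild type, 6.17, 5.48, 9.05 and 5.74 in Crebbp+/-, and 6.07, 7.30, 8.94 and 6.84 in Ep300+/-. Crebbp+/- 3 and Ep300+/- 3 stood above every other array by more than 1.5 log2 units, and the 3 genotypes overlapped. Its log2 fold change of 0.19 (SE 0.75) in Crebbp+/- became -0.62 without Crebbp+/- 3. Over the 12 arrays its Pearson r with the other 4 Alcam probe sets lay between -0.33 and -0.08, whereas those 4 correlated with each other at r from 0.85 to 0.92. Probe sets of 1 gene share the same RNA and hybridization, so these values describe how they track each other. The part of the transcript that each probe set covers is not known here, so the table does not say which of them stands for total Alcam. The genes most alike to 1443086_at over the 12 arrays, named after its values were seen, were Erbin (r = 0.967), Marcksl1 (0.964) and Tnfaip2 (0.963).

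**Figure D2:**
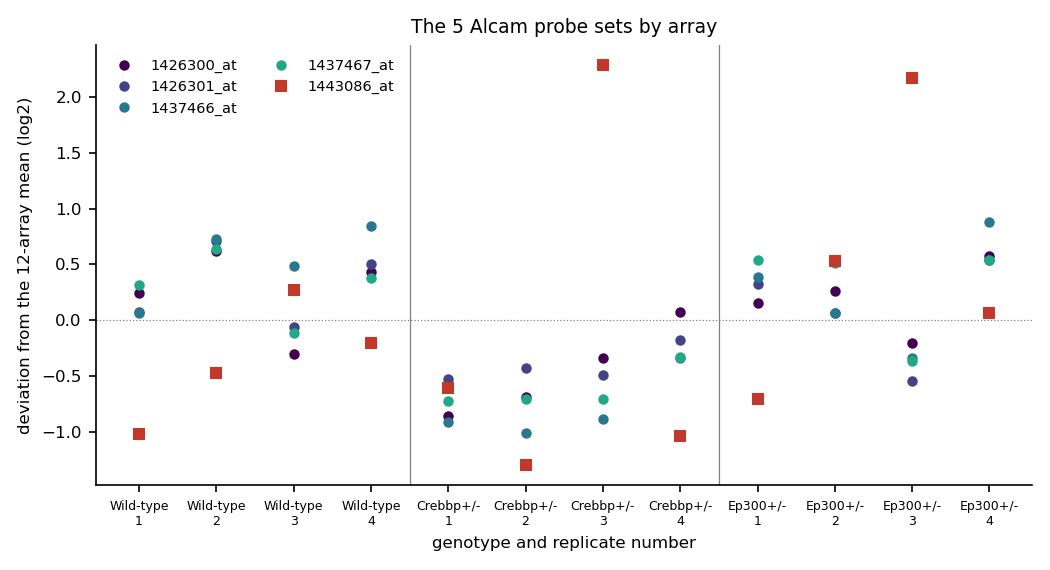
Deviation of each Alcam probe set from its own mean over 12 arrays (log2, vertical axis) by genotype and replicate number (horizontal axis). Circles are the 4 probe sets that track each other, and squares are 1443086_at, which read 9.05 on Crebbp+/- 3 and 8.94 on Ep300+/- 3.

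Among the probe sets that were lower in Crebbp+/- stroma than in wild type, Cdh2 had the smallest difference. Its log2 level was 10.31, 10.72, 10.93 and 10.88 in wild type, 9.97, 10.26, 10.27 and 10.79 in Crebbp+/-, and 10.66, 10.89, 10.37 and 10.71 in Ep300+/-. The 3 genotypes overlapped, with Crebbp+/- 4 above 2 of the wild-type arrays and wild-type 1 close to Crebbp+/- 2 and 3. Means were 10.71 ± 0.282, 10.32 ± 0.339 and 10.66 ± 0.218 (SD, n = 4 each), and the Crebbp+/- level was 76.5% of wild type (log2 fold change -0.39, SE 0.25). All 4 same-numbered differences were negative, from -0.66 to -0.10. Set against the shift of 0.243 of the whole table the distance was larger, at -0.59 after median centring of the arrays.

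For Mcam the order was wild type, Ep300+/- and Crebbp+/-, and the first 2 did not differ beyond their spread. For Cadm1 it was Crebbp+/-, wild type and Ep300+/-, where the last 2 overlapped. For 4 Alcam probe sets and Cdh2 Crebbp+/- was lowest, and wild type and Ep300+/- overlapped in each. For Alcam 1443086_at the order was wild type, Crebbp+/- and Ep300+/-, with all 3 overlapping.

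**Figure D3:**
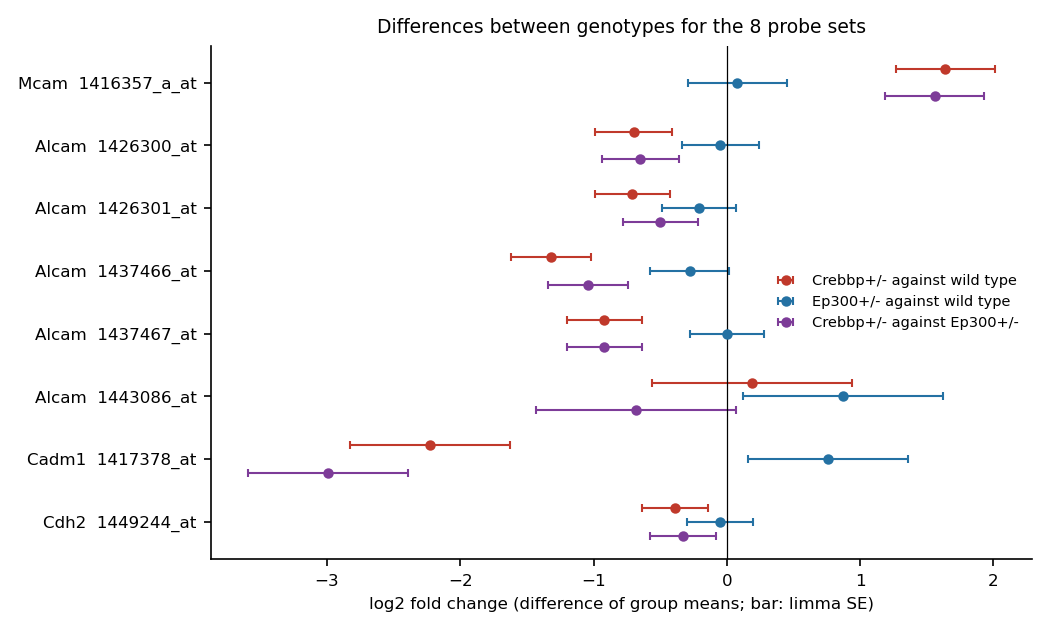
Log2 fold change of each probe set (horizontal axis) in the 3 comparisons, with limma's standard error as bars. Differences between Ep300+/- and wild type ran from -0.28 to 0.87, while those of Crebbp+/- against wild type ran from -2.23 for Cadm1 to 1.64 for Mcam.

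In limma's fit over all probe sets, 3 of the 8 had a Benjamini-Hochberg adjusted p under 0.05 between Crebbp+/- and wild type, against 6.18% of all probe sets. They were Mcam, Cadm1 and Alcam 1437466_at. Since the genes were chosen on these values, nothing is read from that count. When the replicate number entered as a block, so that arrays were paired, 5 of 8 passed, against 26.1% of all probe sets, and Alcam 1426301_at and 1437467_at were the additional ones. In the unpaired fit, without wild-type 2, 3 or 4, or without Crebbp+/- 1, 2 or 3, 0 of 8 passed. In that order, 30, 48, 5, 9, 7 and 55 of all probe sets passed, against 192 with every array. Cadm1 was also lost without wild-type 1 and without Ep300+/- 1 or 2. Mcam was also lost with only these genotypes in the fit, which left 2 of 8, and without Crebbp+/- 3 and Ep300+/- 3 together. Without any 1 array the log2 fold change stayed between 1.45 and 1.97 for Mcam, between -2.58 and -1.85 for Cadm1 and between -1.47 and -1.21 for Alcam 1437466_at. Arrays of Crebbp+/- and wild type did not overlap for 4 of the 8 probe sets (Cadm1 and 3 of Alcam), as for 18.8% of the whole table.

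The direction of these 3 differences was the same without Crebbp+/- 1 and 3, the arrays with the low Eif2s3y level. On Crebbp+/- 2 and 4 alone the log2 fold change from wild type was 1.30 for Mcam, -2.28 for Cadm1 and -1.20 for Alcam 1437466_at. With Eif2s3y as a covariate the 3 values were 1.23, -2.50 and -1.29. In either fit 0 of 8 probe sets passed. Of all probe sets, 4 passed without Crebbp+/- 1 and 3 and 0 passed with the covariate. Any part of sex-linked differences between arrays was not tested further.

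No difference in these genes was detectable between Ep300+/- and wild-type stroma on these arrays. By limma 0 of 8 probe sets passed against wild type, as did 0.0% of all probe sets, and 0 of 8 had an unadjusted p under 0.05 (126 of the 3109 did). Adjusted p-values of the 8 lay between 0.965 and 0.999. The 95% interval of the Mcam difference ran from -0.73 to 0.89 and that of Cdh2 from -0.61 to 0.50 on the log2 scale. For the 4 concordant Alcam probe sets the intervals together spanned -0.94 to 0.60. Alcam 1443086_at had the largest difference of the 8, at 0.87 with an interval from -0.76 to 2.50, and its same-numbered differences were 0.31, 1.0, 1.91 and 0.26. Cadm1 averaged 0.76 above wild type with an interval from -0.53 to 2.05, and same-numbered arrays differed by 1.39, 0.26, -0.07 and 1.45. None of the 8 had all Ep300+/- arrays on 1 side of all wild-type arrays, against 4.15% of the table. The same wild-type arrays served both comparisons and took part in the choice of the genes, so these counts and p-values are descriptive too.

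Directly between the heterozygotes, Mcam and Cadm1 were the 2 of 8 with an adjusted p under 0.05, against 6.4% of all probe sets. Non-overlap held for 3 of 8 (Mcam, Cadm1 and, by less than 0.01, Alcam 1437466_at), against 13.5% of the table. The Crebbp+/- arrays that chose the genes enter here again, so these counts are descriptive too. With the arrays paired by replicate number 4 of 8 passed, against 24.4% of all probe sets, the additional ones being Alcam 1437466_at and 1437467_at. In the unpaired fit, leaving out Crebbp+/- 1, 2 or 3 or Ep300+/- 1 or 4 ended the Mcam call. Leaving out Crebbp+/- 1 or 2 or Ep300+/- 1 ended that of Cadm1. Both were lost with only these genotypes in the fit, and without Crebbp+/- 4 or without Ep300+/- 3, 4 of 8 passed.

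After the genotype means were removed, so that only differences between arrays of 1 genotype were left, Cadm1 tracked the 4 concordant Alcam probe sets (Pearson r from 0.74 to 0.85 over 12 arrays). Cdh2 had r = 0.51 with Cadm1 and from 0.43 to 0.65 with the same Alcam probe sets. Mcam had r = -0.72 with Cdh2 and -0.41 with Cadm1. With the 4 concordant Alcam probe sets its r ran from -0.60 for 1437466_at to -0.13 for 1437467_at, the brightest, and it was -0.09 with 1443086_at. All values come from the same 12 hybridizations and normalization, and same-numbered arrays deviate together, so these correlations describe the arrays and carry no p.

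The genes most alike to each member, by Pearson r over the 12 arrays among 1973 others, were the following. For Mcam they were Tspan9 (r = 0.981), Ephb4 (0.98), Pxdn (0.967), Flt4 (0.963) and Mest (0.961). With genotype means removed, Ephb4 (0.944), Tspan9 (0.938), Flt4 (0.933) and Pxdn (0.925) stayed among the first 5, joined by Apln (0.925). Ephb4 is a receptor for ephrin-B2, Flt4 a receptor for VEGF-C, and Apln the peptide ligand apelin. For Cadm1 they were Nudt6 (0.945), the sterol demethylase gene Cyp51 (0.945), Zranb3 (0.940), the squalene synthase gene Fdft1 (0.936) and the isomerase gene Idi1 (0.934). With means removed they were Ankrd24, Ckb, Mvd, Cyp51 and Nav2, at r from 0.894 to 0.899.

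For Alcam, taken by 1437467_at, the likeness over 12 arrays was highest for 5031439G07Rik (0.968), Slc17a5 (0.955), the squalene epoxidase gene Sqle (0.948), Pgm2l1 (0.947) and Slamf9 (0.946). With means removed, Cnn1 (0.943), Zfp84 (0.942), Mvd (0.938), Fdps (0.930) and 5031439G07Rik (0.917) came first. For Cdh2 they were Mapk13 (0.941), Cpeb1 (0.920), Ttc13 (0.904), Cemip (0.891) and Pfn2 (0.891). With means removed, Cpeb1 (0.929), Mapk13 (0.922), the adhesion gene Ncam1 (0.898), the actin regulator Enah (0.893) and Nop58 (0.883) led. Cyp51 was on both lists of Cadm1, and Mvd was on the second list of Cadm1 and of Alcam.

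Pecam1, Esam and F11r were the other immunoglobulin superfamily adhesion genes that passed the test, all higher in Crebbp+/- stroma. Like the 4 genes, this and the lists below were chosen with earlier results of these data known. Their counts and p-values are therefore a description and give no independent support. Of 27 listed besides the 3 here, 10 were measured, and by limma between Crebbp+/- and wild type 3 rose, 0 fell and 7 did not pass. Over all features, 156 probe sets rose and 36 fell, or 125 and 72 after median centring and 120 and 72 after quantile normalization, so the direction is that of most calls. The median log2 fold change was 1.0, against 0.24 over all probe sets. Pecam1 (CD31) rose by 1.98 (SE 0.40, limma adjusted p = 0.0184), the endothelial junction protein Esam by 1.83 (SE 0.39, limma adjusted p = 0.0203) and F11r, the junctional protein JAM-A, by 1.36 (SE 0.27, limma adjusted p = 0.0184). Icam2 at 2.43, Pvr at 0.95, Icam1 at 1.05, Vcam1 at 0.39, Ncam1 at 0.12, Igsf8 at -0.50 and Nrcam at -0.82 did not pass. With the arrays paired, 5 rose and 1 fell, where 26.1% of all probe sets passed. The unpaired calls of Pecam1, Esam and F11r were lost without wild-type 2, 3 or 4 and without Crebbp+/- 1, 2 or 3. In Ep300+/- 0 of the 10 passed, with a median of -0.12 against 0.05 over all probe sets. Against Ep300+/- 4 rose in Crebbp+/-, the same 3 and Icam2, where 6.4% of all probe sets passed. With only these genotypes in the fit 2 of the 10 passed. All 4 of these calls were lost without Crebbp+/- 1 or without Ep300+/- 1.

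Among the other cadherins, 3 of 22 listed were measured. Cdh5, the cadherin of endothelial junctions, rose in Crebbp+/- against wild type by 2.09 (SE 0.43, limma adjusted p = 0.0184), a call lost without the same 6 arrays. The mesenchymal Cdh11 at -0.07 (SE 0.32) and Fat4 at 0.06 (SE 0.35) did not pass. Of 20 catenins and junction scaffolds 7 were measured, with a median of 0.55 against 0.24 over all probe sets. The tight junction scaffold Tjp1 rose by 1.14 (SE 0.29, limma adjusted p = 0.0372), also lost without those 6 arrays, without Ep300+/- 1 or 2 and with only the compared genotypes in the fit. Ctnnb1, or beta-catenin, the partner of the Cdh2 tail, was at 0.50 (SE 0.29, limma adjusted p = 0.279). With the arrays paired 5 of the 7 rose, where 26.1% of all probe sets passed. Of 12 listed binding partners only the galectin gene Lgals1 was measured, at 0.17 (SE 0.39).

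Endothelial markers were high on the same arrays as Mcam. The mean of the 13 measured markers, as a deviation from the 12-array mean on the log2 scale, was 0.36, -0.81, -0.76 and -0.75 on wild-type 1 to 4. It was 1.97, 1.63, 1.89 and 0.03 on Crebbp+/- 1 to 4 and -1.08, -0.70, -0.42 and -1.37 on Ep300+/- 1 to 4. Wild-type 1, the highest wild-type array for Mcam, was also the highest for these markers, and Crebbp+/- 4, the lowest Crebbp+/- array for Mcam, was the lowest. With genotype means removed, r with the marker mean was 0.87 for Mcam, -0.58 for Cadm1 and -0.85 for Cdh2 over 12 arrays that share normalization and replicate numbers. It was -0.82, -0.60, -0.58 and -0.48 for Alcam 1437466_at, 1426301_at, 1426300_at and 1437467_at and 0.32 for 1443086_at. Reticular stroma markers tracked the genes in the same directions, with r = 0.61 for Mcam, -0.68 for Cadm1, -0.76 for Cdh2, -0.90 to -0.63 for the 4 concordant Alcam probe sets and 0.40 for 1443086_at. For Mcam r was 0.74 with pericyte and mural, -0.20 with osteoblast and chondrocyte and 0.22 with macrophage markers. In that order r was -0.22, 0.65 and -0.42 for Cadm1 and -0.49, 0.49 and -0.60 for Cdh2. It was -0.61 to 0.07, 0.41 to 0.72 and -0.77 to -0.56 for the 4 concordant Alcam probe sets. For 1443086_at it was 0.03, -0.13 and 0.81. In Crebbp+/- against wild type 8 of the 13 endothelial markers rose and 5 did not pass, where 6.18% of all probe sets passed. In the paired fit 13 rose, where 26.1% of all probe sets passed. The median was 1.98, against 0.24 over all probe sets. Unpaired, the count of rising markers was at most 1 without wild-type 2, 3 or 4 or without Crebbp+/- 1, 2 or 3. Those fits called 5 to 55 of all probe sets. The count was 13 without Crebbp+/- 4, where 383 of all probe sets passed.

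**Figure D4:**
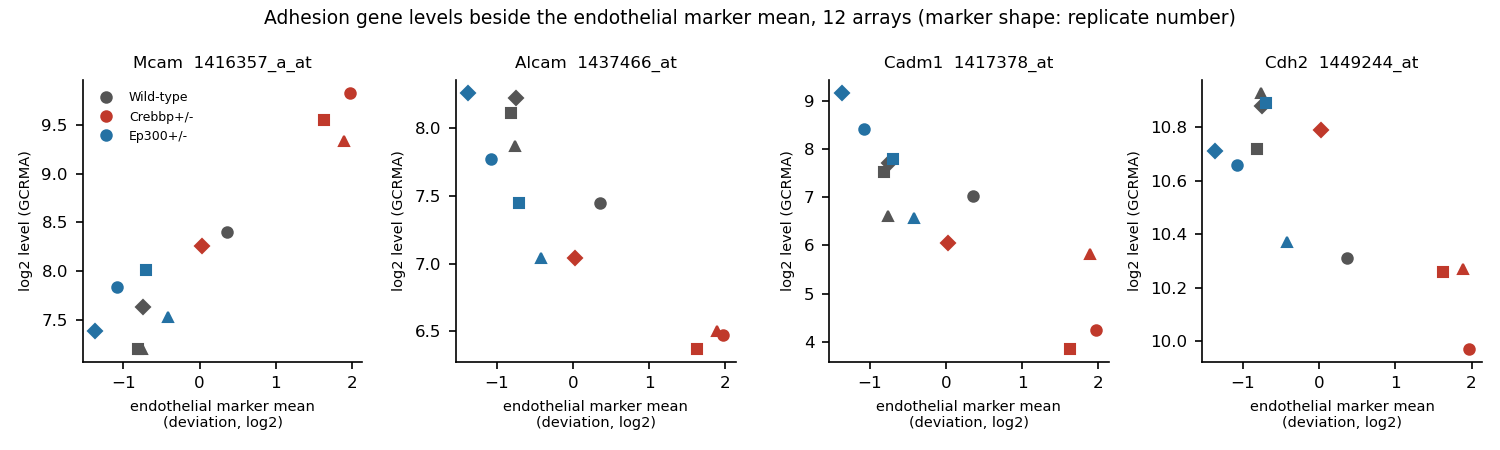
Log2 level of Mcam, Alcam 1437466_at, Cadm1 and Cdh2 (vertical axes, separate scales) against the mean deviation of 13 endothelial markers (horizontal axis), 1 point per array. Crebbp+/- 4 has a marker mean of 0.03, beside wild-type 1 at 0.36, and the other Crebbp+/- arrays have 1.63 to 1.97.

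Pericyte and mural markers ranged from 0.48 to 1.02 in Crebbp+/-, from -0.84 to 0.08 in wild type and from -0.97 to -0.07 in Ep300+/- (mean deviation of 5 measured markers). Of these, Rgs5 and Rgs4 rose in Crebbp+/- against wild type (by 2.57 and 1.72, limma adjusted p = 0.0267 and 0.0184). In this comparison 6.18% of all probe sets passed, 156 of them higher and 36 lower in Crebbp+/-. Both calls were lost without wild-type 2, 3 or 4 and without Crebbp+/- 1, 2 or 3. Notch3 at 0.93, Myh11 at 0.84 and Cnn1 at -0.13 did not pass. Of 5 osteoblast and chondrocyte markers measured, 2 fell in Crebbp+/- and 3 did not pass, with Alpl at -1.03, Pth1r at -0.66 and Col2a1 at 0.88. Comp, a cartilage matrix protein, fell by 2.71 (SE 0.30, limma adjusted p = 0.00155) and kept its call without any 1 array. Ibsp, a bone matrix protein, fell by 1.75 (SE 0.42, limma adjusted p = 0.0293) and lost it without the same 6 arrays as Mcam. The mean over the 5 was 0.20 to 0.73 in wild type, -0.96 to -0.37 in Crebbp+/- and -0.36 to 0.55 in Ep300+/-, where Ep300+/- 3 was lowest, as it was for Cadm1. Reticular stroma markers overlapped between genotypes, from -0.81 to 0.64 in wild type and -0.89 to 0.90 in Crebbp+/-, and 0 of 8 passed, the nearest being Foxc1 at 0.52 (limma adjusted p = 0.354). Of the macrophage markers Cd163 rose by 1.18 (SE 0.26, limma adjusted p = 0.0228), a call lost without the same 6 arrays, under quantile normalization and under median centring. Cd14 at 0.69, Fcgr1 at 0.56 and Marco at -0.13 did not pass, and of 11 lymphoid and erythroid markers 0 were in the table. With Eif2s3y as a covariate 0 genes of any adhesion or marker list passed between Crebbp+/- and wild type, as did 0 of all probe sets. The part of any of these cell types in the levels of Mcam, Cadm1, Alcam and Cdh2 was not tested.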

How the data were processed

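The deposited table gives a log2 level per probe set and array, which the authors made with GCRMA according to the submitters' processing notes. GCRMA corrects background by probe sequence, normalizes between arrays and summarises probe sets, so levels are relative and are not compared between probe sets. No source used here names its version. The table had 3127 probe sets, of which 18 controls were left out. In the values, the lowest interquartile range was 0.5001 and no probe set reached the log2 of 100 on fewer than 3 arrays, so flat probe sets are not analysed here. Values were used as deposited.

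The tests used limma 3.58.1 in R 4.3.3 (lmFit, eBayes) in 1 fit over 12 arrays with a mean per genotype, two-sided, adjusted by Benjamini-Hochberg over 3109 probe sets and called under 0.05. The fit was tested on simulated data in which the arrays were independent. Such data cannot show how it behaves where same-numbered arrays deviate together. Replicate numbers recur between genotypes. Deviations of same-numbered arrays had r of 0.448 to 0.603 between Crebbp+/- and wild type, and of 0.294 to 0.513 between the heterozygotes, so the numbers were taken to pair those arrays (every r above 0.1). For Ep300+/- and wild type the lowest r was 0.0593. What a replicate number shares is not stated in the labels. Standard errors, adjusted p-values and calls are of the unpaired fit, which does not use the pairing, unless pairing is named. The fits that left out arrays were unpaired too. How the paired calls depend on single arrays was not tested. Depth does not apply, and the number of arrays limits the precision.

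The 4 genes and all gene lists were chosen with earlier results of these data known. Named genes were the members, the 5 most alike genes by r over arrays with and without genotype means, with the brightest probe set standing for a gene, and the called or smallest-p genes of each list. Python 3.11.15 with pandas 2.3.3, numpy 2.4.6 and matplotlib 3.10.9 was used. The alternatives were another normalization, a filter on low values, another variance model, a fold minimum, array weights, fits of 2 genotypes, the replicate block and leaving out arrays.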

Additional observations from a re-analysis of the deposited data

Results flagged for a closer look

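Among the 24 groups of 4 arrays (8 probe sets in 3 genotypes), 2 held an array far from its group, and chance gives about 1 in 20. Both were for Alcam 1437467_at, with Crebbp+/- 4 at 8.05 above the other Crebbp+/- arrays at 7.65 to 7.67, and Ep300+/- 3 at 8.01 below the other Ep300+/- arrays at 8.89 to 8.91.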

How the results depend on the processing

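Between Crebbp+/- and wild type, 3 of the 8 probe sets and 192 of all passed. With array weights (gene-by-gene, since the default estimate did not converge) these were 7 and 1267, and with the replicate block 5 and 812. Without 1 array they ranged from 0 to 4 and from 5 to 383. The next alternatives were chosen after seeing the data. With Eif2s3y as a covariate the counts were 0 and 0, and without Crebbp+/- 1 and 3 together 0 and 4. Between Ep300+/- and wild type 0 of all passed, with array weights 13, with the replicate block 1, and without 1 array 0 to 1. Between the heterozygotes 2 of the 8 and 199 of all passed. With only these genotypes in the fit the counts were 0 and 51, with array weights 7 and 1273, with the replicate block 4 and 760, with Eif2s3y 0 and 0, without Crebbp+/- 1 and 3 together 0 and 2, and, also chosen after seeing the data, without Crebbp+/- 3 and Ep300+/- 3 together 122 of all. Without 1 array they ranged from 0 to 4 and from 2 to 374. The cause was not tested. Of 528 log2 fold changes of members under the alternatives, 526 moved by less than the spread between replicates, and no called one changed sign. Many could not move. The filter on low values, the other variance model, fits of 2 genotypes and the replicate block leave a difference of group means as it is. So does leaving out an array of the genotype not compared. The count of 526 is therefore no measure of robustness.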
